A study of Homo sapiens with 20 samples.

Results

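The mitotic G2/M genes are 42 genes that a cell switches on late in its cycle to condense, attach and separate its chromosomes. They were chosen by symbol, as the rows of the deposited count table that carry the 42 listed names. All 42 were found, each in 1 row, among the 60656 rows of the table, and all 42 passed the filter on low counts that left 24790 rows for testing. The list holds 4 cyclin and CDK1 genes, 5 mitotic kinase genes (TPX2, the activator of Aurora A, among them), 2 genes of the chromosomal passenger complex, 6 of the spindle checkpoint and anaphase control, 6 of the kinetochore and centromere, 8 mitotic kinesins, 8 of the spindle and cytokinesis, and 3 of the chromosome and of transcription.

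Entry into mitosis is driven by CDK1 with its A- and B-type cyclins, and exit by the anaphase-promoting complex, which marks cyclins and securin for destruction. Genes of this programme are low in resting cells and peak together in G2 and M phase, under the factors FOXM1 and B-MYB and the MuvB complex, so their RNA in a mixed population follows how many cells are close to division. Pancreatic cancer lines divide continuously in culture, and MKI67 and TOP2A from this list are used in pathology as proliferation markers.

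RNA was sequenced in 20 libraries of SW1990, an established human pancreatic ductal adenocarcinoma cell line. The series describes a mouse model of pancreatic cancer treated with Traditional Chinese Medicine. The 4 treatments are named by their therapeutic principle: clearing Heat and removing Dampness (here heat-clearing), strengthening spleen and regulating qi-flowing (spleen-strengthening), eliminating heat by nourishing yin (yin-nourishing) and activating blood and removing stasis (blood-activating), with 5 libraries each. The labels name no herbs, dose or duration, no untreated group, no mouse strain and no tumour site, so each comparison sets one treatment against another and no change from an untreated state can be read. They do not say whether replicates are different mice or cultures, and p-values then measure only the spread between these libraries, which may be technical. Total counts ran from 81.7 to 135 M per library (M stands for mega), with 89.99 to 135 M in heat-clearing, 81.7 to 110.0 M in spleen-strengthening, 83.3 to 105 M in yin-nourishing and 90.4 to 110.5 M in blood-activating libraries.

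The cells of the libraries were checked against marker genes. The check covers human genes only, since the counts are on hg38 and no step for mouse reads is stated. It cannot tell how much RNA of mouse cells a library held. Summed over 7 epithelial genes, levels ran from 1887 to 3058 CPM (counts per M counts, scaled by the trimmed mean of M-values, TMM). Sums over 7 fibroblast genes ran from 17.5 to 67.1 CPM, and sums over 5 endothelial genes from 7.62 to 23.5 CPM. The 7 leukocyte genes summed to 50.8 to 85.4 CPM, of which CD68 held 51.7 CPM and LYZ 8.67 CPM on average. CSF1R averaged 0.457 CPM and ITGAM 0.0426 CPM, and PTPRC, CD3E and MS4A1 averaged 0.127, 0.0672 and 0.0119 CPM. By group, the endothelial sums ran from 9.75 to 13.1 CPM in heat-clearing, 13.7 to 23.5 CPM in spleen-strengthening, 9.85 to 15.2 CPM in yin-nourishing and 7.62 to 18.6 CPM in blood-activating libraries. The leukocyte sums ran from 50.8 to 75.5 CPM in heat-clearing, 51.2 to 62.6 CPM in spleen-strengthening, 52.3 to 66.1 CPM in yin-nourishing and 55.6 to 85.4 CPM in blood-activating libraries. Genes of pancreatic acinar cells varied most, from 0.315 to 680.4 CPM over 10 genes. In bulk RNA, fewer dividing cells and less of these RNAs per cell cannot be told apart. A high share of the small nuclear RNA RN7SK set apart 5 libraries, 2 of them heat-clearing and 3 blood-activating, and blood-activating replicate 08 was also low in nearly all members. For members, group orders, median fold changes and counts by unadjusted p that use these libraries are given with all 20 and again without the 5. Counts of groups that do not overlap, DESeq2 and limma calls and medians by GC range use all 20 only. Genes of the other cell cycle lists are given with all 20 only.

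Promoters of such genes often carry CCAAT boxes, bound by the factor NF-Y, and a cell cycle homology region with the core TTTGAA or TTTAAA, bound by MuvB. RefSeq windows of 300 bases (build GRCh38.p14, 250 before to 50 after the start, the most upstream start of each gene) matched 35 of the 42 genes, and AURKA, TPX2, BIRC5, TTK, UBE2C, RACGAP1 and FOXM1 were not matched. Searched on both strands, with overlapping matches counted separately, CCAAT was in 29 of the 35 windows (82.9%), against 35.7% of all 27305 promoter windows. At least 2 CCAAT boxes were in 19 windows (54.3%, against 11.3% of all). TTTGAA was in 26 windows (74.3%, against 15.5%), TTTAAA in 14 (40%, against 12.4%) and either of them in 31 (88.6%, against 24.4%). A CCAAT together with either core was in 25 windows (71.4%, against 9.55%). A match describes letters in a window and is no proof of binding. The windows of the 3 genes that lead the comparison of yin-nourishing with blood-activating libraries show how the arrangement differs within the list, with CCAAT boxes (read as ATTGG on the other strand) and both cores in capitals.
CCNB2, chr15:59104896-59105195, plus strand: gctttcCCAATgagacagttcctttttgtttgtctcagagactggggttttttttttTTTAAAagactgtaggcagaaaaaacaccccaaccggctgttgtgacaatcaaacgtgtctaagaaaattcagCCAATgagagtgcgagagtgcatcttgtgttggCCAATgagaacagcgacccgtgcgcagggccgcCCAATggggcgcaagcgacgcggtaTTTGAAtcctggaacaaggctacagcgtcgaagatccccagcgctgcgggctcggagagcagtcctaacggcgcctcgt
KIF20A, chr5:138178862-138179161, plus strand: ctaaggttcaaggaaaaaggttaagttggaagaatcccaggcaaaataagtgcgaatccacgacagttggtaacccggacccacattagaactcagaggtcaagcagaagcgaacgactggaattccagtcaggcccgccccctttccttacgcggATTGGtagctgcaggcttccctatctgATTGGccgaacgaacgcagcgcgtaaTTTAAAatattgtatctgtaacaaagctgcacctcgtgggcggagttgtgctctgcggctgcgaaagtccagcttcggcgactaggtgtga
CENPE, chr4:103198294-103198593, minus strand: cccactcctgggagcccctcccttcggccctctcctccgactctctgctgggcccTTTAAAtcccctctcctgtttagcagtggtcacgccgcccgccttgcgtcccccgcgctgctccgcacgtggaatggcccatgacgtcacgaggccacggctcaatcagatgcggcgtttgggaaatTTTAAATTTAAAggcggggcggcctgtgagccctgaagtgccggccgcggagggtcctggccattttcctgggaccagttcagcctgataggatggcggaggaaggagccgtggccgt
In CCNB2, CCAAT boxes began 120, 87 and 54 bases before the start, 33 bases apart, with another 244 bases before it, and TTTGAA began 29 bases before the start. In KIF20A, a pair of boxes on the reverse strand lay 94 and 67 bases before the start, 27 bases apart, followed by TTTAAA at 41. The CENPE window held no CCAAT and TTTAAA at 195, 68 and 62 bases before the start. BUB1, CCNA2, AURKB and NEK2 had CCAAT boxes and neither core, while ANLN, BUB1B, KIF2C, NDC80, NUF2 and CENPE had a core and no CCAAT.

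All 42 genes were counted in every library, over a wide range of levels. Per length, TOP2A (DNA topoisomerase II alpha, which untangles sister chromatids) was highest at 80.3 CPM per kb of transcript, averaged over the 20 libraries. It was followed by TPX2 with 76.4, UBE2C (the ubiquitin-conjugating enzyme of the anaphase-promoting complex) with 63.9, FOXM1 with 56.4 and ANLN (anillin, of the contractile ring) with 55.7 CPM per kb. CENPA, the centromeric histone, was lowest with 3.19 CPM per kb, below the kinesins KIF18B with 3.68 and KIF4A with 3.91 CPM per kb. These neighbours in the order lie closer to each other than their spread over the 20 libraries, whose SD on the log2 scale is 0.24 for TOP2A, 0.33 for TPX2 and 0.51 for UBE2C. Per length, the cyclin and CDK1 genes spanned 16.9 to 46.5 CPM per kb, the kinases with TPX2 8.20 to 76.4, the passenger genes 6.83 to 7.50, the checkpoint and anaphase genes 8.33 to 63.9, the kinetochore genes 3.19 to 18.5, the kinesins 3.68 to 18.8, the spindle and cytokinesis genes 8.33 to 55.7 and the chromosome and transcription genes 15.1 to 80.3. The steadiest member was ANLN with an SD of 0.15 on the log2 scale, and the most variable was PRC1 with 0.74.

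Most members were highest on average in yin-nourishing libraries and lowest in blood-activating libraries. The highest of the 4 group means was in the yin-nourishing group for 30 of the 42 genes, where 21.7% of all genes tested had theirs. The lowest was in the blood-activating group for 28 of the 42, where 26.5% of all genes had theirs. Of the other members, 7 were highest in heat-clearing, 3 in blood-activating and 2 in spleen-strengthening libraries. Averaged over the 42 genes, the deviation from each gene's mean over all libraries (log2 CPM) was -0.01 ± 0.137 in heat-clearing, 0.004 ± 0.167 in spleen-strengthening, 0.135 ± 0.176 in yin-nourishing and -0.129 ± 0.293 in blood-activating libraries (SD, n = 5 each). The libraries ran from -0.03 to 0.425 in the yin-nourishing and from -0.619 to 0.158 in the blood-activating group, so the ranges overlap. Without the 5 RN7SK-high libraries, which leaves 3 heat-clearing and 2 blood-activating ones, 35 members were highest in yin-nourishing (21.2% of all genes) and 32 lowest in blood-activating libraries (29.5% of all genes). The mean deviation was then 0.039 in heat-clearing, 0.004 in spleen-strengthening, 0.135 in yin-nourishing and -0.075 in blood-activating libraries. The last 2 groups thus lay closer together than with all 20 libraries, although the counts were higher.

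**Figure D1:**
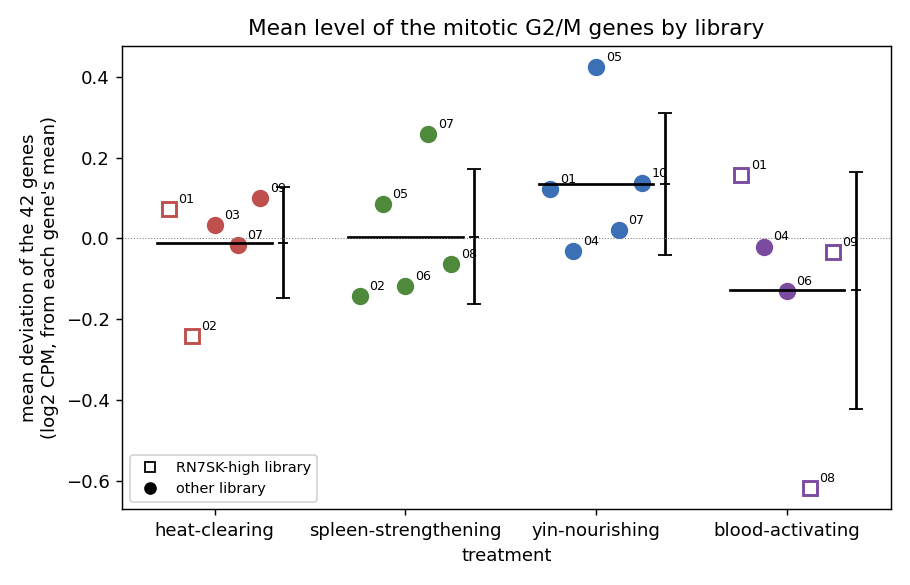
Mean deviation of the 42 mitotic G2/M genes from their own means (log2 CPM, vertical axis) in each library by treatment, with the replicate number beside each point. Black lines are group means, bars are 1 SD over 5 libraries, and open squares are the 5 libraries with over 4% of counts on RN7SK. The groups overlap, with blood-activating replicate 08 lowest at -0.619 and yin-nourishing replicate 05 highest at 0.425.

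No member passed the test across all 4 treatments at once (edgeR quasi-likelihood F-test, Benjamini-Hochberg adjusted over all 24790 rows, threshold 0.05), in which 0% of all genes passed. At an unadjusted p under 0.05 there were 9 of the 42 members, or 15.4% of all genes. DESeq2 called 3 members in the same comparison (9.18% of the 13711 genes with an adjusted p) and limma 8 (13.5% of all genes). Counts of 9, 3 and 8 of 42 are close to what the same rules gave over all genes. Without the RN7SK-high libraries 4 members had an unadjusted p under 0.05 (4.46% of all genes). With all 20 libraries there were 3 with a term for the RN7SK-high libraries in the fit (4.03%) and 3 with each library's slope against GC content as a covariate (3.98%), and no member passed after adjustment in edgeR in any of these fits. The members with the smallest p in edgeR were CCNB2 (adjusted p = 0.172), KIF20A (0.172), NUSAP1 (0.19), ECT2 (0.197), CENPE (0.229) and TOP2A (0.254), and their values in every library follow.

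CCNB2 encodes cyclin B2, a partner of CDK1 (chr15:59105078-59125045, plus strand, GRCh38). It had 29.3, 24.4, 44.3, 38.8 and 44.2 CPM in the 5 heat-clearing libraries, 47.5, 50.9, 43.9, 50.7 and 41.7 CPM in the 5 spleen-strengthening libraries, 49.5, 47.4, 66.5, 53.6 and 49.9 CPM in the 5 yin-nourishing libraries and 35.6, 39.7, 34, 20.7 and 32.1 CPM in the 5 blood-activating libraries. Every spleen-strengthening and every yin-nourishing library lay above every blood-activating library, while the heat-clearing libraries lay below every yin-nourishing one and overlapped the other groups.

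KIF20A encodes a kinesin of the central spindle that is needed for cytokinesis (chr5:138178719-138187715, plus strand). It had 47.2, 39, 74.8, 55.7 and 62.6 CPM in the 5 heat-clearing libraries, 59.9, 63.8, 63.8, 67.2 and 62.6 CPM in the 5 spleen-strengthening libraries, 67.1, 64.2, 87.2, 74.4 and 78.2 CPM in the 5 yin-nourishing libraries and 51.2, 55.1, 45.5, 33.5 and 49.7 CPM in the 5 blood-activating libraries. The spleen-strengthening and yin-nourishing libraries again lay wholly above the blood-activating ones, and the heat-clearing libraries spread across both ranges.

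NUSAP1 encodes a protein that bundles spindle microtubules around chromosomes (chr15:41332694-41381050, plus strand). It had 67.9, 64, 99.4, 84.1 and 105 CPM in the 5 heat-clearing libraries, 88.6, 123, 87.7, 112 and 95.2 CPM in the 5 spleen-strengthening libraries, 99, 102, 121, 118 and 109 CPM in the 5 yin-nourishing libraries and 84.2, 88.2, 79.7, 56.8 and 82.5 CPM in the 5 blood-activating libraries. The yin-nourishing libraries lay above all blood-activating ones, and 1 spleen-strengthening library, replicate 06, lay below the highest blood-activating value.

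ECT2 encodes the exchange factor that activates RhoA at the division furrow (chr3:172750682-172821474, plus strand). It had 138, 129, 192, 192 and 189.7 CPM in the 5 heat-clearing libraries, 197, 202, 182, 203 and 193 CPM in the 5 spleen-strengthening libraries, 194, 191, 219, 173 and 220.1 CPM in the 5 yin-nourishing libraries and 154, 184, 150, 102 and 139 CPM in the 5 blood-activating libraries. The spleen-strengthening libraries were the tightest group, and blood-activating replicate 04 reached into their range and that of the yin-nourishing libraries.

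CENPE encodes a kinetochore kinesin that carries chromosomes to the spindle equator (chr4:103105806-103198409, minus strand). It had 51.3, 39.1, 61.4, 52.1 and 53.7 CPM in the 5 heat-clearing libraries, 51.8, 59.7, 49.4, 68.5 and 52.4 CPM in the 5 spleen-strengthening libraries, 59.4, 55.1, 79, 60.4 and 67.9 CPM in the 5 yin-nourishing libraries and 46.2, 54.3, 50.6, 29.2 and 45.1 CPM in the 5 blood-activating libraries. The yin-nourishing libraries lay above all blood-activating ones by a narrow margin, 55.1 against 54.3 CPM.

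TOP2A (chr17:40388516-40417950, minus strand) had 422, 366, 464, 419.8 and 483 CPM in the 5 heat-clearing libraries, 479, 527, 433, 551 and 464 CPM in the 5 spleen-strengthening libraries, 513, 507, 627, 490.4 and 479 CPM in the 5 yin-nourishing libraries and 414, 497, 412, 283 and 413 CPM in the 5 blood-activating libraries. All 4 groups overlapped, and blood-activating replicate 08 was far below every other library.

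**Figure D2:**
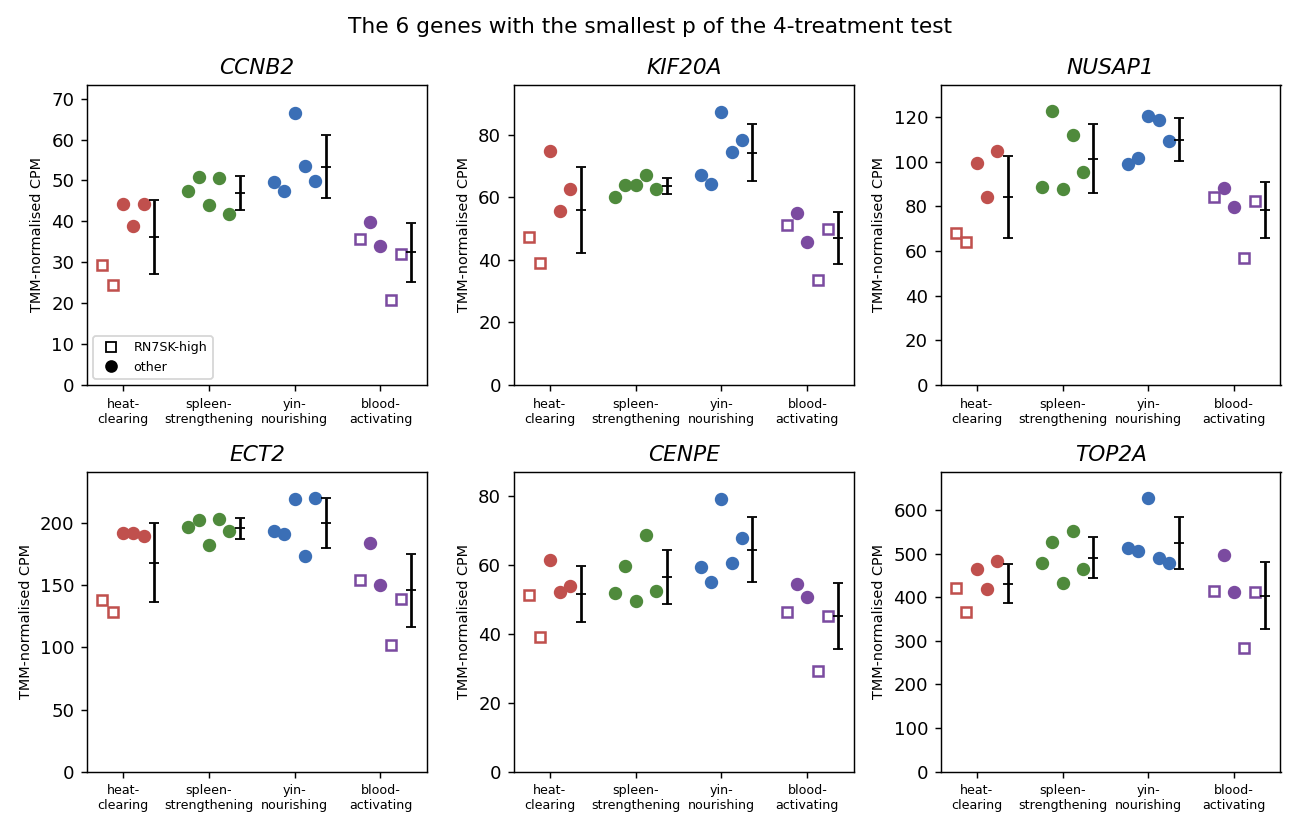
TMM-normalised CPM (vertical axes, from 0) of the 6 members with the smallest p of the 4-treatment test, by treatment. Points are libraries, open squares are the 5 with over 4% of counts on RN7SK, and bars show the mean and 1 SD of 5 libraries. For CCNB2 the blood-activating points, 20.7 to 39.7 CPM, lie below all yin-nourishing points, 47.4 to 66.5 CPM.

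Yin-nourishing libraries stood furthest from blood-activating ones. The median log2 fold change of the 42 members, yin-nourishing over blood-activating, was 0.29, against -0.09 for all genes tested, and 34 of the 42 lay above 0, as did 43.6% of all genes. No member passed edgeR's adjusted threshold (0% of all genes passed, smallest adjusted p = 0.141). At an unadjusted p under 0.05, 16 members were higher and none was lower, against 7.74% and 10.5% of all genes. The 16 became 9 without blood-activating replicate 08 (5.19% of all genes higher), 12 without the 5 RN7SK-high libraries (2.67%), 5 with a term for those libraries (1.997%) and 6 with the GC slope as covariate (2.01%), with none lower in any of these fits (8.31%, 3.32%, 2.52% and 2.58% of all genes). In 5 members, CCNB2, KIF20A, NUSAP1, CENPE and TTK, every yin-nourishing library exceeded every blood-activating one, as in 2.26% of all genes, and in none did the groups separate the other way, as in 1.86%. DESeq2 called 6 members, all higher (3.43% of the genes it tested were called higher), and limma called 14, all higher (7.47% of all genes).

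KIF20A averaged 74.2 ± 9.16 CPM in yin-nourishing and 47.0 ± 8.28 CPM in blood-activating libraries (SD, n = 5 each), a log2 fold change of 0.66 (SE 0.148). CCNB2 averaged 53.4 ± 7.64 CPM in yin-nourishing and 32.4 ± 7.14 CPM in blood-activating libraries, a log2 fold change of 0.72 (SE 0.168). These 2 genes had the smallest p of the list, and each was separated between the groups in all 5 libraries against 5. CENPE averaged 64.4 ± 9.40 CPM in yin-nourishing and 45.1 ± 9.63 CPM in blood-activating libraries, a log2 fold change of 0.51 (SE 0.151). NUSAP1 averaged 109.8 ± 9.71 CPM in yin-nourishing and 78.3 ± 12.4 CPM in blood-activating libraries, a log2 fold change of 0.49 (SE 0.143). The adjusted p was 0.141 for each of the 4 in edgeR. With a term for the RN7SK-high libraries the log2 fold changes were 0.43 for KIF20A, 0.43 for CCNB2, 0.32 for CENPE and 0.27 for NUSAP1, and with the GC slope 0.42, 0.45, 0.36 and 0.29 in the same order (adjusted p = 1 for each in edgeR).

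By role, the members with an unadjusted p under 0.05 in this pair came, with all 20 libraries, from most parts of the mitotic machinery. Among cyclins, CCNA2, CCNB1 and CCNB2 were in this set and CDK1 was not, with 78.8 ± 5.28 CPM in yin-nourishing and 72.3 ± 12.6 CPM in blood-activating libraries. Of the kinases and TPX2, AURKA (Aurora A, of the spindle poles) and TPX2 were in it. Neither BIRC5 nor CDCA8, the genes listed as passenger genes, was, with BIRC5 (survivin) at 18.2 ± 2.65 CPM in yin-nourishing and 19.2 ± 4.61 CPM in blood-activating libraries. AURKB, listed with the kinases, was not in it either. TTK, a checkpoint kinase, and PTTG1, securin, stood for the checkpoint and anaphase genes. The outer kinetochore genes NDC80 and NUF2, partners in the same complex, and CENPE were in it. So were the kinesins KIF14 and KIF20A, the spindle and cytokinesis genes NUSAP1, ECT2 and ASPM, and TOP2A. FOXM1, which activates many of these genes, averaged 210.8 ± 34.2 CPM in yin-nourishing and 177 ± 48.2 CPM in blood-activating libraries and was not in the set, and neither was MKI67, with 181 ± 34.1 CPM in yin-nourishing and 201 ± 46.1 CPM in blood-activating libraries. The set depended on the libraries and the fit. Without the 5 RN7SK-high libraries it was KIF18A, PTTG1, NUSAP1, TPX2, FOXM1, CCNB2, ECT2, RACGAP1, KIF20A, CCNB1, TTK and CDC20 (2.67% of all genes higher). FOXM1 was then in it, while NDC80, NUF2 and CENPE were not. With a term for those libraries it was CENPE, PTTG1, CCNB2, KIF20A and CDC20 (1.997%). With the GC slope as covariate it was these and the passenger gene CDCA8 (2.01%).

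Spleen-strengthening libraries had higher means than blood-activating ones for part of the list. The comparison uses the same blood-activating libraries, so the 2 results are not independent. The median member log2 fold change was 0.17, against -0.04 for all genes, and 29 of the 42 lay above 0 (47.1% of all genes). No member passed in edgeR (0% of all genes, smallest adjusted p = 0.0977). At an unadjusted p under 0.05 there were 10 members higher and 1 lower, against 8.28% and 12.2% of all genes. This count rested on the libraries and the fit used. Without blood-activating replicate 08 it was 3 higher and 1 lower (5.22% and 10.4% of all genes), and without the 5 RN7SK-high libraries 5 higher and 0 lower (2.50% and 4.07%). With a term for the RN7SK-high libraries (1.89% of all genes higher, 3.51% lower) and with the GC slope as covariate (1.81% and 2.71%) no member was left in either direction. In 3 members, CCNB2, KIF20A and BUB1, the groups did not overlap, with spleen-strengthening higher, as in 1.94% of all genes, and in none with it lower, as in 2.49%. DESeq2 called 3 members, all higher (5.04% of the genes it tested), and limma called 11, all higher (8.59% of all genes).

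CCNB2 averaged 46.95 ± 4.09 CPM in spleen-strengthening and 32.4 ± 7.14 CPM in blood-activating libraries, 0.53 on the log2 scale (SE 0.168, adjusted p = 0.0977 in edgeR). ECT2 averaged 195.5 ± 8.36 CPM in spleen-strengthening and 145.6 ± 29.5 CPM in blood-activating libraries, 0.42 on the log2 scale (SE 0.136, adjusted p = 0.099). KIF20A averaged 63.5 ± 2.60 CPM in spleen-strengthening and 47.0 ± 8.28 CPM in blood-activating libraries, 0.43 on the log2 scale (SE 0.148, adjusted p = 0.111). The other 7 higher members with an unadjusted p under 0.05 had log2 fold changes of 0.28 to 0.41. They were NUSAP1 with 0.37, TPX2 with 0.41, the checkpoint kinase BUB1 with 0.35, TOP2A with 0.28, ASPM (of the spindle poles) with 0.32, CENPE with 0.32 and the cytokinesis kinesin KIF14 with 0.33. Their adjusted p in edgeR ran from 0.144 for NUSAP1 to 0.23 for KIF14. The lower member was UBE2C, with 46.8 ± 8.76 CPM in spleen-strengthening and 72.5 ± 35.6 CPM in blood-activating libraries, -0.63 on the log2 scale (SE 0.294, adjusted p = 0.228).

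These fold changes were smaller in the fits around the RN7SK-high libraries. For CCNB2, spleen-strengthening over blood-activating, the log2 fold change of 0.53 became 0.36 without the 5 libraries, 0.25 with a term for them and 0.21 with the GC slope. ECT2 had 0.24, 0.18 and 0.13 in the same fits in place of 0.42, and KIF20A had 0.34, 0.21 and 0.14 in place of 0.43. Without the 5 libraries TOP2A had 0.12, ASPM 0.14, CENPE 0.11, KIF14 0.21, NUSAP1 0.28, BUB1 0.27 and TPX2 0.36. With the term or the GC slope these 7 had 0.10 to 0.26. All 10 stayed above 0 in these 3 fits, and none had an adjusted p under 0.72 in edgeR.

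**Figure D3:**
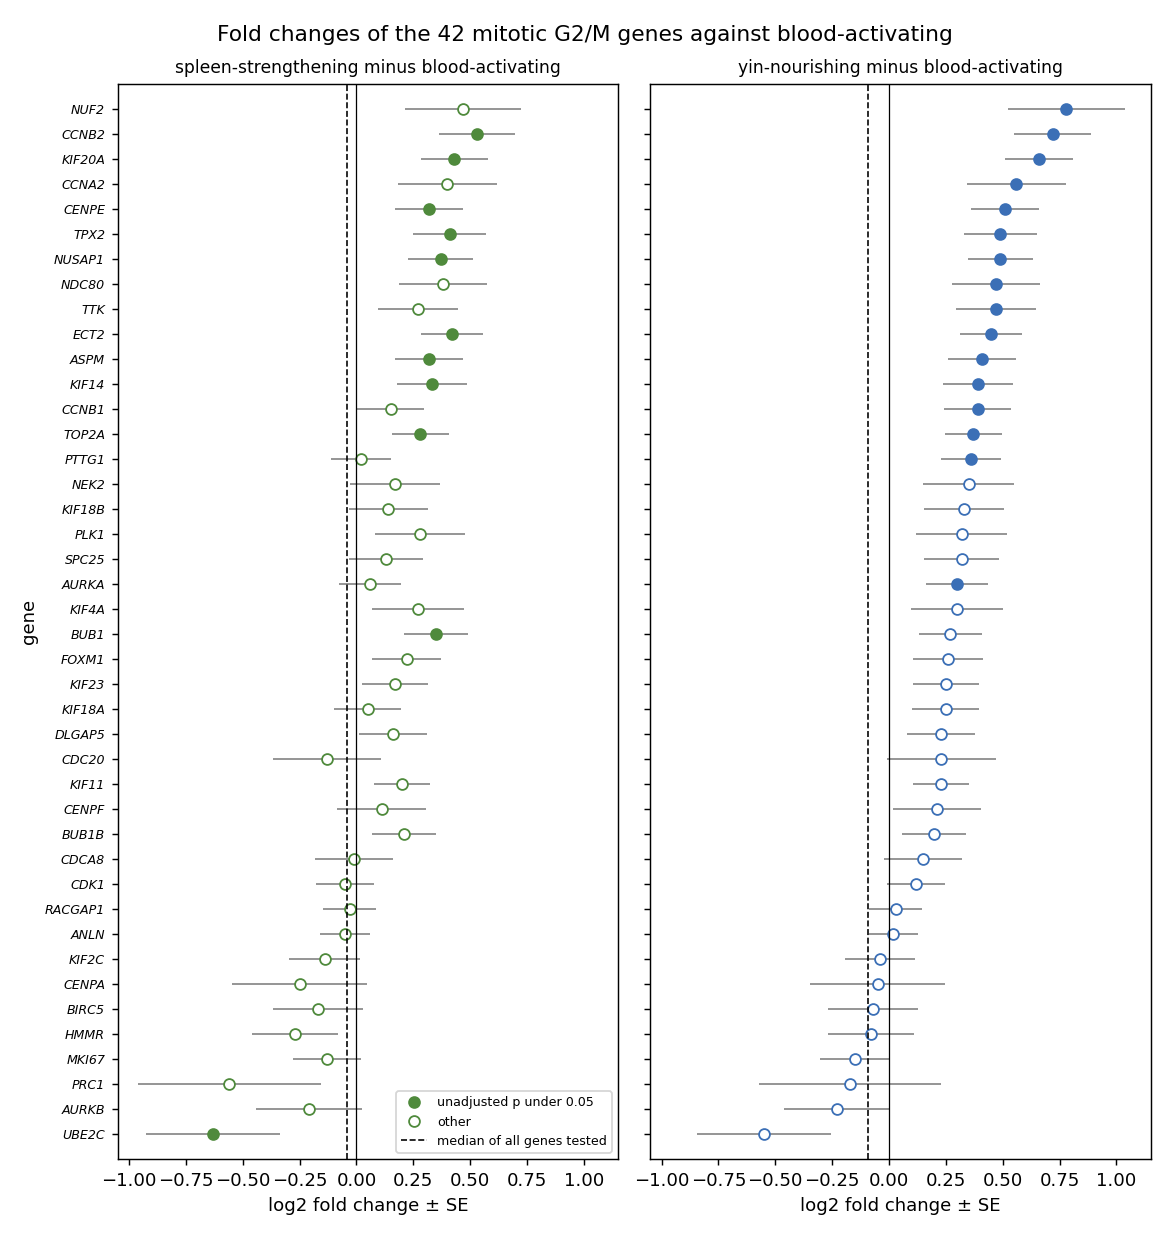
Log2 fold change with its SE (horizontal axes) of each of the 42 members in spleen-strengthening minus blood-activating (left) and yin-nourishing minus blood-activating (right), with genes ordered by the right panel. Filled points have an unadjusted p under 0.05, and the dashed line is the median of all genes tested. Of the 42, 29 lie above 0 on the left and 34 on the right, and UBE2C is lowest in both, at -0.63 and -0.55.

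The other 4 pairs were closer. In heat-clearing against yin-nourishing libraries the median member log2 fold change was -0.15 (0.05 for all genes), and 9 members lay above 0 (54.4% of all genes). No member passed (0% of all genes in edgeR), 9 were lower and none higher at an unadjusted p under 0.05 (3.20% and 7.07% of all genes), and in CCNB2 alone every heat-clearing library lay below every yin-nourishing one (0.424% of all genes, with 0.738% the other way). CCNB2 averaged 36.2 ± 8.97 CPM in heat-clearing and 53.4 ± 7.64 CPM in yin-nourishing libraries, a log2 fold change of -0.56 (SE 0.168). KIF20A followed with -0.41 (SE 0.148), NUSAP1 with -0.39 (SE 0.143) and PTTG1 with -0.37 (SE 0.133), and the adjusted p was 0.456 for all 4. DESeq2 and limma called no member in this pair. Without the RN7SK-high libraries 3 members were lower (1.42% of all genes) and none higher (2.94%), CCNB2 had -0.33, KIF20A -0.2 and NUSAP1 -0.19, and PTTG1 had -0.36. With a term for those libraries 4 were lower (1.82%) and with the GC slope 5 (1.77%).

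Heat-clearing and spleen-strengthening libraries had a median member log2 fold change of -0.07 (0.02 for all genes), with 17 members above 0 (51.8% of all genes). No member passed (0.00807% of all genes), 1 was lower and none higher at an unadjusted p under 0.05 (3.03% and 8.44% of all genes). It was CCNB2 with 36.2 ± 8.97 CPM in heat-clearing and 46.95 ± 4.09 CPM in spleen-strengthening libraries, -0.37 on the log2 scale (SE 0.167, adjusted p = 0.395). Without the RN7SK-high libraries its log2 fold change was -0.15 and the member median 0, and no member had an unadjusted p under 0.05 (1.51% of all genes lower, 2.94% higher). Heat-clearing and blood-activating libraries had a median of 0.12 (-0.01 for all genes), with 37 members above 0 (48.5% of all genes). No member had an unadjusted p under 0.05 there, where 0.795% of all genes were higher and 1.06% lower, and 0% of all genes passed. KIF20A came first with 55.9 ± 13.8 CPM in heat-clearing and 47.0 ± 8.28 CPM in blood-activating libraries, 0.25 on the log2 scale (SE 0.148, adjusted p = 1). The median was 0.14 once the RN7SK-high libraries were left out, and KIF20A, with 0.36, and TPX2 were higher at an unadjusted p under 0.05 (1.47% of all genes higher, 2.10% lower), while without blood-activating replicate 08 the median was 0 and KIF20A had 0.14. Spleen-strengthening and yin-nourishing libraries had a median of -0.1 (0 for all genes), with 4 members above 0 (50.3% of all genes). The 1 member with an unadjusted p under 0.05 (2.05% of all genes were lower and 2.66% higher, and 0% passed) was PTTG1, with 53.2 ± 4.93 CPM in spleen-strengthening and 67.3 ± 9.08 CPM in yin-nourishing libraries, -0.34 on the log2 scale (SE 0.133, adjusted p = 0.895). In these 3 pairs no member had groups that did not overlap, and DESeq2 and limma called none. Over all genes the groups were apart with heat-clearing higher in 0.799% and lower in 0.460% against spleen-strengthening, with heat-clearing higher in 0.182% and lower in 0.307% against blood-activating, and with spleen-strengthening higher in 0.420% and lower in 0.351% against yin-nourishing.

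The first principal component of the 42 genes over the 20 libraries held 54.7% of their variance and the second 21.2%, against 24.6% and 8.18% for all genes tested. The sets differ in size, in level and in how their genes were chosen, so these shares are not a like comparison. In 7 libraries the members were split, with 17 to 25 of the 42 above their own mean, and nearly all members lay on one side at the 2 ends. Blood-activating replicate 08 was below the 20-library mean in 41 of the 42 genes (41.4% of all genes tested) and was the lowest of all libraries in 33 (5.24% of all genes). The member above its mean there was UBE2C. At the other end, yin-nourishing replicate 05 was above the mean in 41 of the 42 (49.1% of all genes), all but PRC1, and was the highest library in 19 (3.92% of all genes). The mean deviations of these libraries were -0.619 and 0.425 on the log2 scale, which is 0.651 and 1.34 times the mean level.

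These 2 libraries were picked as the lowest and the highest of the 20, and they lie in the lower and the higher group. Leaving either out was therefore bound to narrow the difference, and the values only show by how much. Without blood-activating replicate 08 the median member log2 fold change, yin-nourishing over blood-activating, was 0.17 in place of 0.29, and without yin-nourishing replicate 05 it was 0.14. The median of spleen-strengthening over blood-activating was 0.04 without blood-activating replicate 08 in place of 0.17. It was 0.09 without spleen-strengthening replicate 07, the highest library of its group, in which 38 members were above their mean. CCNB2 and KIF20A, yin-nourishing over blood-activating, had log2 fold changes of 0.58 and 0.55 without blood-activating replicate 08 (adjusted p = 0.313 for both in edgeR). Marker sums of other cells in blood-activating replicate 08 were at the ends of their ranges for endothelial genes, 7.62 CPM against 9.09 CPM or more elsewhere, and for leukocyte genes, 85.4 CPM against 75.5 CPM or less elsewhere. The endothelial genes did not move together. PECAM1 (5.23 CPM, against a mean of 10.4 over the 20 libraries), CDH5 and VWF were below their means. KDR (0.116 against 0.0417 CPM) and CLDN5 (0.446 against 0.2315 CPM) were above theirs. Of the leukocyte sum in this library, CD68 made up 76.7 CPM and LYZ 8.20 CPM. CSF1R had 0.455 CPM and ITGAM 0.0714 CPM, and PTPRC, CD3E and MS4A1 were at 0. The part of other cells in the low values of this library was not tested.

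**Figure D4:**
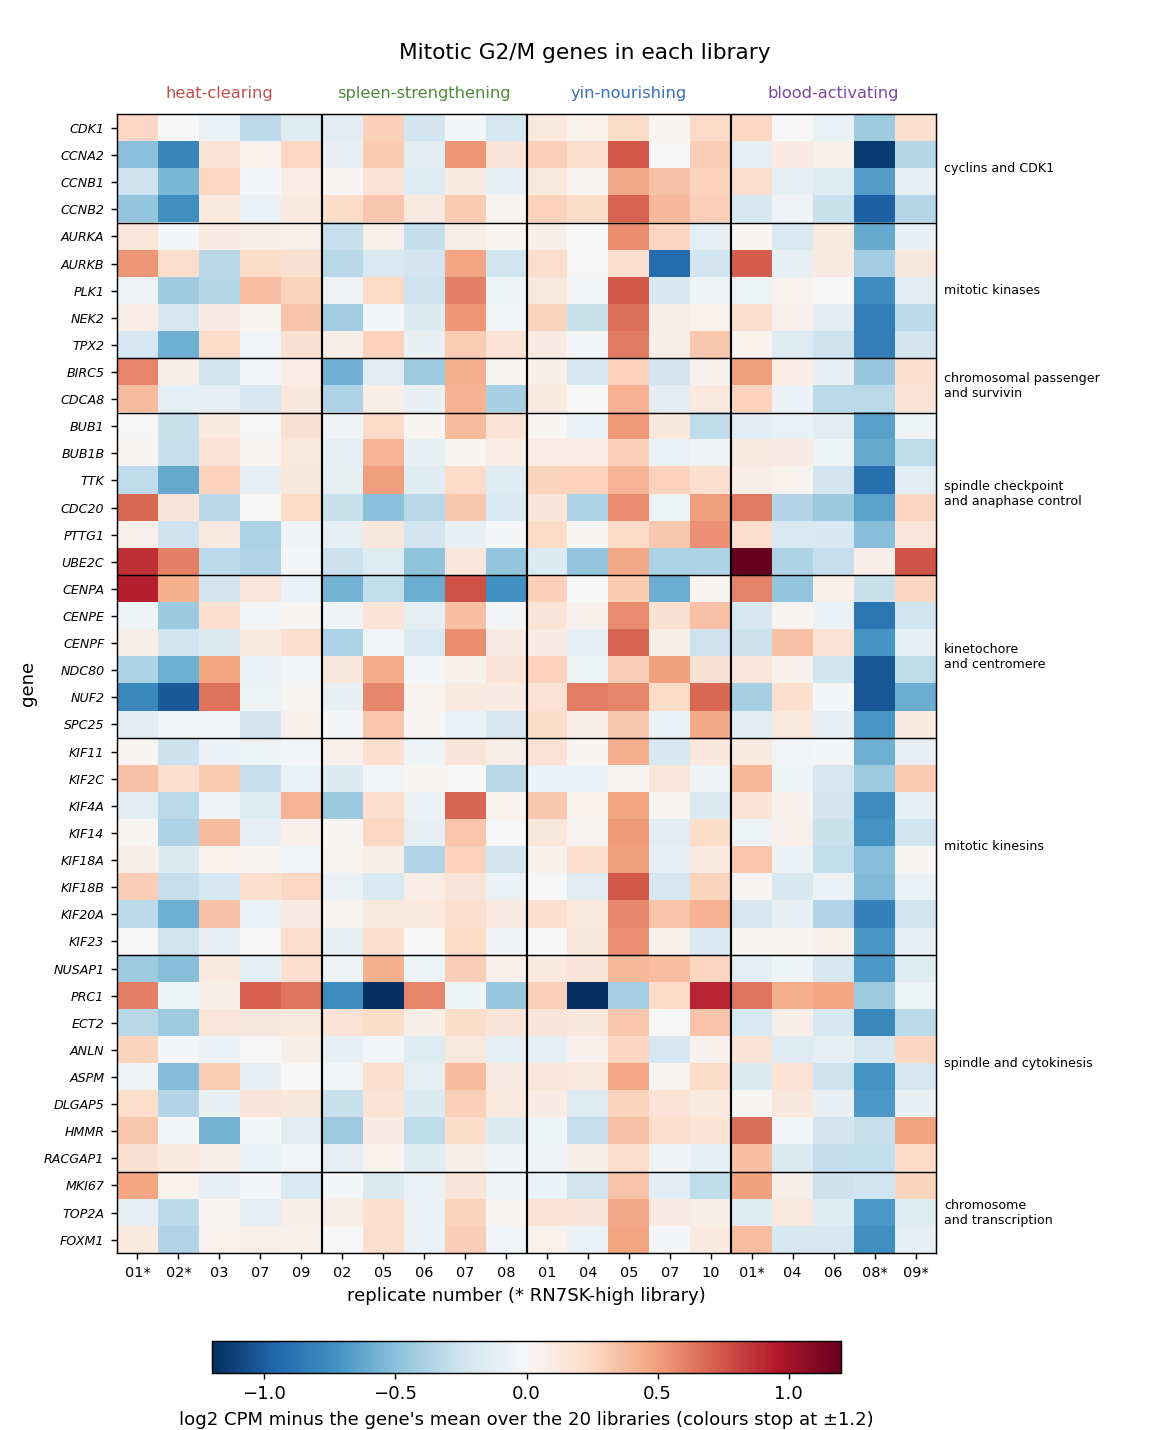
Deviation of each member's log2 CPM from its mean over the 20 libraries (colour, red higher and blue lower) for 42 genes in rows, grouped by role, and 20 libraries in columns, grouped by treatment, with asterisks on the 5 libraries with over 4% of counts on RN7SK. Blood-activating replicate 08 is blue in 41 rows and yin-nourishing replicate 05 red in 41.

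The same libraries differed in other genes of the cell cycle, from lists that overlap the 42 nowhere. Over 51 other G2/M genes, blood-activating replicate 08 deviated by -0.413 and yin-nourishing replicate 05 by 0.277 on the log2 scale. Over 30 S phase genes the values were -0.287 and 0.248. No gene of these lists, nor of 22 G2/M regulators, passed the 4-treatment test in edgeR, and 14 of the 51, 6 of the 30 and 5 of the 22 had an unadjusted p under 0.05 (15.4% of all genes). The counts and the genes named from these lists use all 20 libraries and were not examined without the RN7SK-high ones. Among other G2/M genes the smallest p belonged to KIF20B, a kinesin of cytokinesis, with 54.5 ± 16.5 CPM in heat-clearing, 65.4 ± 1.95 CPM in spleen-strengthening, 69.2 ± 3.26 CPM in yin-nourishing and 47.3 ± 9.73 CPM in blood-activating libraries (adjusted p = 0.195 in edgeR). SMC4, a condensin subunit, had 263 ± 86.7 CPM in heat-clearing, 339 ± 19.4 CPM in spleen-strengthening, 327 ± 26.9 CPM in yin-nourishing and 202 ± 83.5 CPM in blood-activating libraries (adjusted p = 0.197 in edgeR). INCENP, the scaffold of the passenger complex, had its highest mean in blood-activating libraries, with 20.7 ± 9.22 CPM in heat-clearing, 13.3 ± 2.94 CPM in spleen-strengthening, 13.8 ± 2.96 CPM in yin-nourishing and 24.8 ± 10.01 CPM in blood-activating libraries (adjusted p = 0.2 in edgeR). For KIF20B, SMC4 and INCENP the SD was largest in heat-clearing and blood-activating libraries, the groups that hold the RN7SK-high libraries.

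Among the regulators the smallest p belonged to a repressor and to inhibitors of the cycle. E2F4, a repressor of cell cycle genes in resting cells, averaged 56.8 ± 24.6 CPM in heat-clearing, 34.7 ± 6.08 CPM in spleen-strengthening, 37.1 ± 3.02 CPM in yin-nourishing and 75.2 ± 33.1 CPM in blood-activating libraries (adjusted p = 0.172 in edgeR). Its SD too was largest in the groups that hold the RN7SK-high libraries. CDKN1B, the CDK inhibitor p27, averaged 47.2 ± 9.94 CPM in heat-clearing, 58.1 ± 7.27 CPM in spleen-strengthening, 60.4 ± 7.48 CPM in yin-nourishing and 43.4 ± 5.26 CPM in blood-activating libraries (adjusted p = 0.173 in edgeR). WEE1, the kinase that holds CDK1 inactive, averaged 40.5 ± 8.44 CPM in heat-clearing, 52.3 ± 8.03 CPM in spleen-strengthening, 49.1 ± 2.44 CPM in yin-nourishing and 37.4 ± 5.77 CPM in blood-activating libraries (adjusted p = 0.183 in edgeR). The inhibitors CDKN1B and WEE1 and the cyclins CCNA2, CCNB1 and CCNB2 all had their lowest mean in blood-activating libraries. Of the S phase genes, CDT1, which licenses replication origins, averaged 11.4 ± 3.65 CPM in heat-clearing, 6.07 ± 2.38 CPM in spleen-strengthening, 6.73 ± 1.68 CPM in yin-nourishing and 11.3 ± 2.37 CPM in blood-activating libraries (adjusted p = 0.172 in edgeR). DTL, of the ligase that destroys CDT1, averaged 48.4 ± 7.13 CPM in heat-clearing, 50.9 ± 5.70 CPM in spleen-strengthening, 49.5 ± 7.59 CPM in yin-nourishing and 36.7 ± 6.89 CPM in blood-activating libraries (adjusted p = 0.197 in edgeR). RFC4, a subunit of the clamp loader, averaged 6.02 ± 1.06 CPM in heat-clearing, 8.70 ± 1.10 CPM in spleen-strengthening, 8.84 ± 2.31 CPM in yin-nourishing and 6.66 ± 1.01 CPM in blood-activating libraries (adjusted p = 0.217 in edgeR).

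A split among the libraries runs through the heat-clearing and blood-activating groups. The small nuclear RNA RN7SK took 5.25% to 7.38% of counts in 5 libraries, against 1.57% to 3.02% in the other 15. Epithelial marker sums were 2644 to 3058 CPM in the 5 libraries against 1887 to 2578 CPM in the other 15. The genes of this sum did not all move together. In blood-activating replicate 08, CDH1 had 463 CPM against a mean of 315 over the 20 libraries, and MUC1 337 against 199 CPM. KRT7 and KRT8 were above their means there too. EPCAM (75.7 against 97.2 CPM), KRT18 (204 against 211 CPM) and KRT19 (852 against 917 CPM) were below theirs. The part of these differences in the members' values was not tested. The 5 libraries were replicates 01 and 02 of heat-clearing, with replicates 01, 08 and 09 of blood-activating. None of them is spleen-strengthening or yin-nourishing. In these 5 libraries the level of a gene relative to its mean climbed with the GC content of its transcript, by 0.27 to 0.34 on the log2 scale per 10 percentage points, against -0.22 to 0.05 in the other 15. Members have transcripts poor in GC, with a median of 42.9% (35.3% to 58.4%) against 49.3% over 15200 protein-coding genes tested.

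Within treatment, few members separated the RN7SK-high libraries from the others in both groups: 3 of the 42 lay below and 1 above, and neither count exceeds the share over all genes, 10.04% and 12.4%. NUF2, CCNA2 and CENPE were lower in every RN7SK-high library than in every other library of their treatment, in both groups. NUF2 had 20, 17, 53.9, 33 and 34.7 CPM in heat-clearing replicates 01, 02, 03, 07 and 09, and 26, 39.6, 33.9, 16.9 and 22.6 CPM in blood-activating replicates 01, 04, 06, 08 and 09. The mean difference, RN7SK-high minus other libraries, was -1.1 in heat-clearing and -0.77 in blood-activating libraries for NUF2, -0.8 and -0.61 for CCNA2, and -0.31 and -0.42 for CENPE (log2 CPM). UBE2C was the 1 member higher in every RN7SK-high library than in every other library of its treatment, in both groups. It had 100.4, 83.1, 44, 42.6 and 54.2 CPM in the 5 heat-clearing libraries, 45.7, 49, 39.1, 60.5 and 39.5 CPM in the 5 spleen-strengthening libraries, 48.8, 39.5, 74.9, 42 and 42.2 CPM in the 5 yin-nourishing libraries and 125, 42.2, 45, 57.9 and 92.1 CPM in the 5 blood-activating libraries. The heat-clearing values of 100.4 and 83.1 CPM and the blood-activating values of 125, 57.9 and 92.1 CPM come from RN7SK-high libraries, and the difference was 0.97 in heat-clearing and 1.0 in blood-activating libraries on the log2 scale.

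The differences between RN7SK-high and other libraries were also set beside GC content, whose part in the members' values was not tested. Protein-coding genes under 40% GC had a median difference, RN7SK-high minus other, of -0.33 in heat-clearing and -0.28 in blood-activating libraries, and the 11 members in that range had -0.21 and -0.28. At 50% GC or more the medians were 0.46 and 0.31 for all protein-coding genes and 0.29 and 0.16 for 9 members. HMMR (a spindle and hyaluronan-binding protein), at 36.7% GC, was 0.39 and 0.42 higher in the RN7SK-high libraries. PLK1, the Polo-like kinase, at 57.3% GC, differed by -0.33 in both groups.

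**Figure D5:**
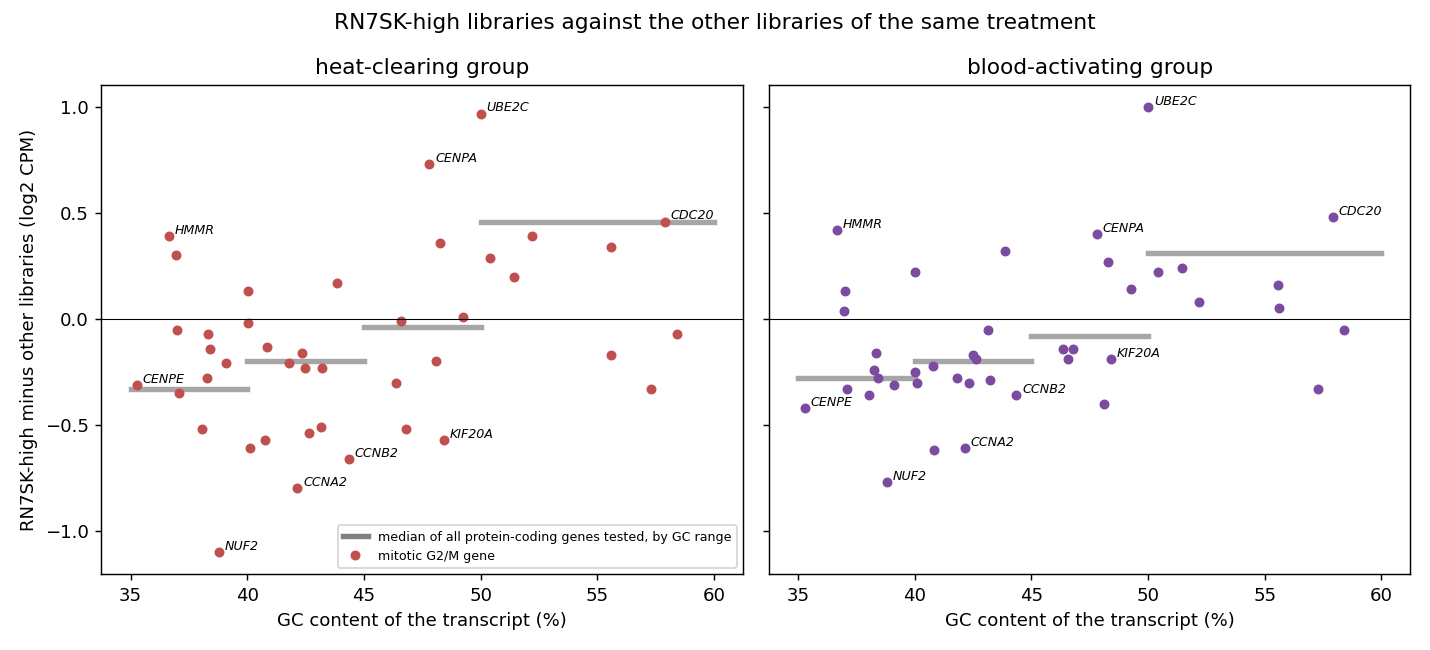
Difference between RN7SK-high libraries and the other libraries of the same treatment (log2 CPM, vertical axes) against transcript GC content (percent, horizontal axes) for the 42 members in heat-clearing (left) and blood-activating (right). Grey lines are medians of all protein-coding genes tested in 4 GC ranges, the last of which is drawn to 60% and holds all genes of 50% or more. UBE2C lies at 0.97 and 1.0, and NUF2 at -1.1 and -0.77.

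The comparisons against blood-activating libraries were repeated around this split. Without the 5 libraries the median member log2 fold change was 0.23 for yin-nourishing over blood-activating and 0.12 for spleen-strengthening over blood-activating, with 39 and 36 of the 42 members above 0. KIF20A and CCNB2 had 0.56 and 0.54 for yin-nourishing over blood-activating (adjusted p = 0.821 for both in edgeR, with 2 blood-activating libraries left). UBE2C, spleen-strengthening over blood-activating, had a log2 fold change of 0.11 without the 5 libraries and of -0.63 with them. With a term for the 5 libraries the medians were 0.22 for yin-nourishing and 0.09 for spleen-strengthening over blood-activating, with 40 and 36 members above 0, and with the GC slope 0.26 and 0.14, with 41 and 38. The median of all genes lay between -0.03 and 0 in these fits. The term is estimated from heat-clearing and blood-activating libraries alone, since the other treatments have no RN7SK-high library. Compared within GC ranges, the yin-nourishing over blood-activating median was 0.37 for the 11 members under 40% GC (0.18 for all protein-coding genes there), 0.33 for 14 members at 40 to 45% (0.12), 0.3 for 8 members at 45 to 50% (0.02) and 0.15 for 9 members at 50% or more (-0.32). In each range the members' median lay above that of all protein-coding genes in the range. The last range has no upper limit and its members reach 58.4% GC, so the genes in it need not be alike in GC content. These medians use all 20 libraries.

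PRC1, which bundles the microtubules of the central spindle, was the most variable member and, like NUF2, UBE2C, HMMR and PLK1 above, was singled out after its values were seen. It had 46.6, 29.6, 32.2, 50.5 and 47.9 CPM in the 5 heat-clearing libraries, 18.2, 8.69, 46, 29.6 and 22.3 CPM in the 5 spleen-strengthening libraries, 37.3, 10.2, 23.1, 36 and 57.9 CPM in the 5 yin-nourishing libraries and 47.9, 41.6, 42.5, 22.9 and 29.6 CPM in the 5 blood-activating libraries. All groups overlap, and the spleen-strengthening and yin-nourishing libraries span the widest range, from 8.69 CPM in spleen-strengthening replicate 05 and 10.2 CPM in yin-nourishing replicate 04 to 57.9 CPM in yin-nourishing replicate 10. In the annotation, 3181 of its exon bases lie within AC068831.7 on the same strand, and 406 within the antisense gene PRC1-AS1. The count table has no row named AC068831.7, and PRC1-AS1 had 1912 counts in all against 67311 for PRC1. Its values are uncertain where the counting could split these reads.

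Other members share bases with neighbours, and the strand setting of the counting is not given in the sources used here. CENPA shares 138 exon bases on the same strand with SLC35F6, which had 121391 counts in all against 9089 for CENPA. KIF20A overlaps BRD8 by 132 and CDC23 by 68 bases on the opposite strand, FOXM1 overlaps ITFG2 by 781 and CCNA2 overlaps EXOSC9 by 254. NUSAP1 shares 1787 bases with AC087721.2 on the same strand, which held 490 counts against 180620. Copies elsewhere in the genome held few counts, with 341 for CCNB2P1 against 81443 for CCNB2, 307 for UBE2CP1 against 114849 for UBE2C, 1294 for AURKAP1 against 91039 for AURKA, 1114 for CDC20P1 against 38631 for CDC20 and 301 for KIF4B against 33075 for KIF4A.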

How the data were processed

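RNA of 20 libraries of the human line SW1990, in 4 treatments of 5, was sequenced after ribosomal RNA removal with a directional kit, per the labels' protocols. The deposited table holds raw counts, whole numbers per gene and library that the authors had not normalised. The submitters' processing notes name HISAT2, StringTie and hg38. Neither the annotation, the strand setting nor any step against mouse reads is stated in the sources used here. Groups and replicate numbers come from the labels.

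Counts were scaled by TMM and tested in R 4.3.3 with edgeR 4.0.16 (robust quasi-likelihood F-tests, 20 libraries in 1 fit, minimum count 10 in the default filter, 24790 rows), with Benjamini-Hochberg adjustment over all rows and a threshold of 0.05. The comparisons were any difference among the 4 treatments and the 6 pairs. The other tools were DESeq2 1.42.0 and, through voom and its quality weights, limma 3.58.1, and the fit was tested on simulated data. Deviations use log2 CPM with a prior count of 2. SE is the log2 fold change divided by the root of F. Positions, lengths and GC content came from GENCODE on GRCh38, where lengths and GC are of 1 transcript a gene, and promoters from RefSeq.

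The members, gene lists and tests were chosen with earlier results of these data known. Fold changes are given for the members with the smallest unadjusted p, up to 12 for spleen-strengthening minus blood-activating and up to 4 for each other pair, with unadjusted p under 0.05 or else the 1 smallest. Values in every library are given for the 6 with the smallest p of the 4-treatment test, for KIF20A and for the highest per length, and 3 genes are named from each other list. Alternatives were other scalings, filters and tools, the title's letter, the replicate number as a block and each library left out. The fits around the RN7SK-high libraries (over 4% of counts) and GC content were added after the data were seen.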

Additional observations from a re-analysis of the deposited data

Results flagged for a closer look

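In 3 of 36 sets of 5 libraries that were checked, 1 library stood apart by Dixon's test, where its gap to the next value exceeds 0.71 of the group's range. Chance alone gives about 1 in 20 sets. TOP2A had 627.4 CPM in yin-nourishing replicate 05, where the next value was 513.4 and the lowest 478.9 CPM (gap 0.767 of the range). UBE2C had 74.86 CPM in the same library, next to 48.79 and with a lowest value of 39.49 CPM (gap 0.737). NUSAP1 had 56.83 CPM in blood-activating replicate 08, below the next value of 79.65 CPM and the highest of 88.23 CPM (gap 0.727). Yin-nourishing replicate 05 was the highest library in 19 of the 42 members and blood-activating replicate 08 the lowest in 33.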

How the results depend on the processing

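The members called were 0 in every comparison under the alternatives of scaling and filter, with the title's letter as a covariate, and without or with a term for the RN7SK-high libraries or GC content. DESeq2 called 3 members among the 4 treatments, 3 in spleen-strengthening minus blood-activating and 6 in yin-nourishing minus blood-activating, and limma 8, 11 and 14. Leaving out each library in turn gave 0 to 2, 0 to 2 and 0 to 3 in these comparisons, with CCNB2 and KIF20A called among the 4 treatments without heat-clearing replicate 03, CCNB2 and ECT2 in spleen-strengthening minus blood-activating without blood-activating replicate 04, and CCNB2, KIF20A and ECT2 in yin-nourishing minus blood-activating without that library. The cause was not tested. In the other 4 pairs all 31 alternatives called 0. Leaving out each library, the median log2 fold change ran from -0.1 to 0.01 in heat-clearing minus spleen-strengthening (0.01 without heat-clearing replicate 02, and 0 without the RN7SK-high libraries), -0.2 to -0.04 in heat-clearing minus yin-nourishing, 0 to 0.18 in heat-clearing minus blood-activating (0 without blood-activating replicate 08), -0.19 to -0.03 in spleen-strengthening minus yin-nourishing, 0.04 to 0.22 in spleen-strengthening minus blood-activating and 0.14 to 0.35 in yin-nourishing minus blood-activating. UBE2C in spleen-strengthening minus blood-activating reversed to 0.11 without the RN7SK-high libraries, 0.07 with a term for them and 0.36 with the GC slope (adjusted p = 1 in edgeR for each). Of the other named fold changes, 656 values kept direction and side of the threshold and 23 newly passed it, but many were smaller around the RN7SK-high libraries. In spleen-strengthening minus blood-activating, ECT2 had 0.18 with the term and 0.13 with the GC slope in place of 0.42, and KIF20A 0.21 and 0.14 in place of 0.43. In yin-nourishing minus blood-activating, KIF20A had 0.43 and 0.42 in place of 0.66, and CCNB2 0.43 and 0.45 in place of 0.72. Members with an unadjusted p under 0.05 in spleen-strengthening minus blood-activating were 11 as reported, 4 without blood-activating replicate 08, 5 without the RN7SK-high libraries and 0 with the term or the GC slope.

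With the replicate number as a block, 0 members were called in any comparison, and medians were -0.13 for heat-clearing minus spleen-strengthening, -0.09 for heat-clearing minus yin-nourishing, 0.06 for heat-clearing minus blood-activating, 0.04 for spleen-strengthening minus yin-nourishing, 0.22 for spleen-strengthening minus blood-activating and 0.18 for yin-nourishing minus blood-activating. In this fit spleen-strengthening minus yin-nourishing changed sign, with 33 members above 0 in place of 4. Members with an unadjusted p under 0.05 were 4 in place of 16 in yin-nourishing minus blood-activating, and 8 in place of 1 in heat-clearing minus spleen-strengthening. The labels do not say whether the numbers pair libraries, and a low correlation cannot exclude it. Of 12 pairs with the same number, 1 had a correlation of deviations over 0.1 (range -0.05 to 0.17), and 2 of 20 libraries correlated best with their own number. The member with the fewest counts, CENPA, had 9089 over the 20 libraries.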
